A study of Mus musculus with 8 samples.

Results

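Genes of arginine and polyamine metabolism, 10 in number, were followed in colon RNA of mice with colitis: Arg1, Arg2, Ass1, Oat, Odc1, Amd1, Srm, Sms, Sat1 and Smox. They were chosen by symbol from a table of 18806 genes, all 10 were found, and all 10 passed the filter on low counts that left 14578 genes for testing. Bulk colon tissue was sequenced from 8 mice, all of which had received dextran sulfate sodium (DSS), a sulfated polysaccharide used to provoke colitis by damage to the epithelium. A group of 4 mice received DSS without further treatment (DSS), and another 4 received DSS and the anaerobic gut bacterium Alistipes putredinis (DSS+AP). The mice were picked at random from larger groups, and no mouse without DSS was sequenced, so comparison with uninflamed colon was not possible. Strain, age, sex, and the doses and days of treatment are not given in the sources used here.

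Arginine stands at a fork between nitric oxide synthases and arginases. Arginases release ornithine, which ornithine aminotransferase passes on toward proline and glutamate, and which ornithine decarboxylase turns into putrescine. Spermidine synthase and spermine synthase lengthen putrescine with aminopropyl groups that S-adenosylmethionine decarboxylase provides, while an acetyltransferase and oxidases return spermine and spermidine to putrescine or mark them for export. In the gut, polyamines are needed for the renewal of the epithelium, and arginine use by macrophages is a known branch point of inflammation.

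Genes of an enzyme on the way to arginine and of 2 enzymes of polyamine breakdown were lower in DSS+AP colon. Ass1, argininosuccinate synthase, was 2.14-fold lower, Sat1, which acetylates spermidine and spermine, 1.46-fold lower, and Smox, which oxidises spermine, 1.40-fold lower. None of the 10 genes was higher past the threshold, an adjusted p under 0.05 by edgeR's quasi-likelihood test with Benjamini-Hochberg adjustment over all 14578 genes. Thus 3 of 10 were lower and 0 of 10 higher, against 20.4% of all tested genes lower and 8.84% higher. Without scaling factors, the calls over all genes were 767 higher and 3211 lower, in place of 1288 and 2974. At an unadjusted p under 0.05, 1 of the 10 was higher and 3 lower, DESeq2 called 1 higher and 3 lower, and limma-voom 2 higher and 3 lower. The median log2 fold change, DSS+AP over DSS, was 0.12 over the 10 genes and 0.02 over all genes tested. In 2 of 10 genes (Sat1 and Smox) every DSS+AP library lay below every DSS library, as did 19.6% of all tested genes. In 0 of 10 all lay above, against 10.8% of tested genes. In bulk tissue, fewer cells of a type and less RNA of a gene per cell cannot be told apart, and this holds for each result given here.

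The stretches upstream of the 3 genes that were lower, and of Odc1, the gene of the first step of polyamine synthesis, are shown because Sat1 and Odc1 lay on opposite sides of 0. They are RefSeq promoter sequences (GRCm38.p6), 5′ to 3′ on the strand of the gene, cut to the part of the 250 bases before the start that no annotated exon covers. Capitals mark the letters of the motifs searched for.
Ass1, chr2:31470020-31470206, plus strand: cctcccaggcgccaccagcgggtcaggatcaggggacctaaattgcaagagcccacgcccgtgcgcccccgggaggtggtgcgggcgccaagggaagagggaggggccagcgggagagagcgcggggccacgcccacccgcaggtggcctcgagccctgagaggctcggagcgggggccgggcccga
Sat1, chrX:155216450-155216699, minus strand: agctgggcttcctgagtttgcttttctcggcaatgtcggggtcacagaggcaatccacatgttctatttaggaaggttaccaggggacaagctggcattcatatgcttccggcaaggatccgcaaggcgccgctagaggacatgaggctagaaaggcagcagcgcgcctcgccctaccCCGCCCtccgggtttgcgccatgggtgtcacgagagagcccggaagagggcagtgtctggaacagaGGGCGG
Smox, chr2:131491654-131491763, plus strand: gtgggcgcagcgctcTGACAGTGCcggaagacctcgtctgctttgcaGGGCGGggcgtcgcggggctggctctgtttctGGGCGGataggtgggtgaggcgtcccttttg
Odc1, chr12:17544623-17544793, plus strand: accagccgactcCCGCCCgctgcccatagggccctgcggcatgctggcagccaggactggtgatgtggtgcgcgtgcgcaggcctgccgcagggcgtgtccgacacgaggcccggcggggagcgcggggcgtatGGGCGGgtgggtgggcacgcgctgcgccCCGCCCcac
On both strands, 6 motifs were searched for in the whole 250 bases. These were the E-box CACGTG, in 6.02% of 32851 RefSeq windows, the GC box GGGCGG in 32.7%, the CCAAT box CCAAT in 33.8%, the TATA box TATAAA in 12.4%, the cyclic AMP element TGACGTCA in 1.55% and the antioxidant element core TGACNNNGC in 10.2%. No 2 motif matches overlapped in the stretches shown. Sat1 had GC boxes beginning 72 and 6 bases before the start. Smox had 6 GC boxes, of which those at 161 and 129 bases before the start are shown, and an antioxidant element core at 193. Odc1 had GC boxes at 238, 116 and 88 bases, and another at 15 that an exon covers. All distances count from the start of the promoter entry. For Odc1 and Smox that start lies inside the gene, past the RefSeq gene start at 17544808 and 131491858. The distances to the gene start are therefore shorter for these 2 genes. The stretch shown for Ass1 held none of the 6, and its E-box at 36 and GC box at 63 bases lay in the part covered by an exon. The GC content of the 250 bases was 75.6% for Ass1 and 80.0% for Odc1, against a median of 52.4% over all windows. Annotated exons cover 63 of these bases for Ass1 and 79 for Odc1. A match of letters describes the sequence and does not show that a factor binds there. Entries were found for 7 of the 10 genes and not for Arg1, Arg2 or Srm.

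Library totals ran from 16089081 to 17104290 estimated counts, with no difference between the groups larger than their spread (p = 0.83 by exact permutation, two-sided, n = 4 each). Levels are given as CPM, the usual short form for counts scaled to the library total, here with TMM factors, in which 3 counts came to between 0.167 and 0.186 CPM. This floor covers counting error only. Epithelial markers, which check the tissue label, were detected in every library, with a summed level of 11058 to 12875 CPM in DSS and 12905 to 14759 in DSS+AP. Library DSS 4 stood apart by its pancreatic enzyme genes, led by Amy2a5 and Ctrb1: their sum was 14883 CPM there and 30.7 to 54.9 in the other libraries. Sat1, Smox and Ass1 kept their calls without DSS 4.

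Levels between genes were compared per length of merged exons, as TPM, a level scaled by length and by the sum over all genes with a length, computed from the deposited counts. Over all 8 libraries Oat stood highest at a mean of 374 TPM, followed by Sat1 at 275, Odc1 at 261 and Amd1 at 147. Smox at 58.3, Srm at 57.0 and Ass1 at 53.9 TPM came next, in an order that differed between the groups, and then Arg2 at 27.9, Sms at 14.0 and Arg1 at 5.93 TPM. So the mitochondrial arginase gene Arg2 stood above Arg1, the arginase gene known from liver and from alternatively activated macrophages. Arg1 was lower than Arg2 in each of the 8 libraries. With the longest transcript as length, the ratio of Arg1 to Arg2 reached 0.933 in DSS 1. The counts of Arg2 are uncertain, for reasons given below, and so is the distance between the 2 genes.

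**Figure D1:**
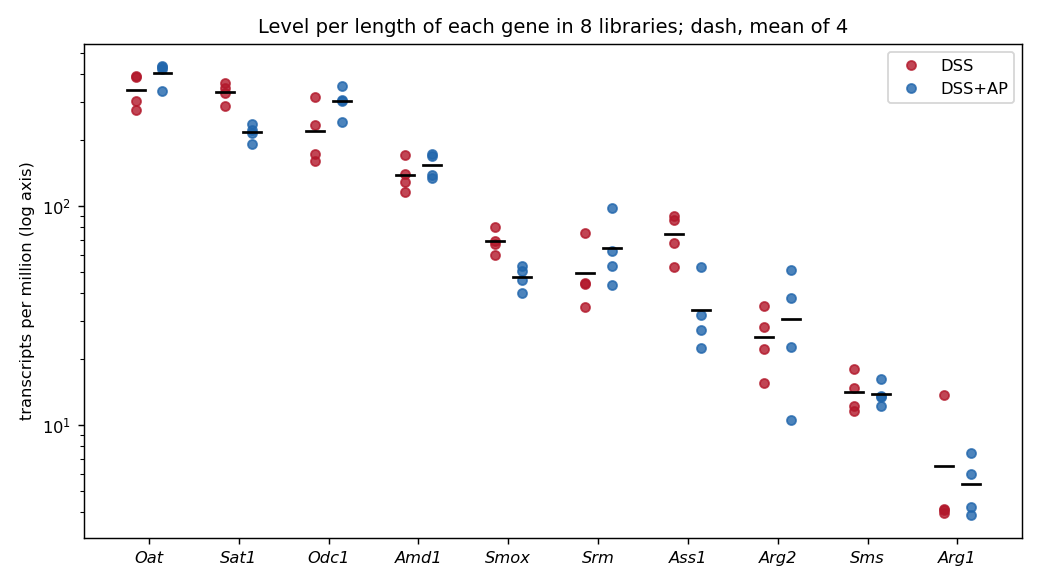
Level per length of the 10 genes in TPM on a log axis, ordered by the mean of 8 libraries; points are libraries, red for DSS and blue for DSS+AP, and dashes the group means. Oat, Sat1 and Odc1 stand highest, between 160 and 435 TPM, and Arg1 lowest.

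In DSS, the ranges of neighbours in this order overlapped except between Amd1 and Smox and between Ass1 and Arg2. In DSS+AP they did not overlap between Oat and Sat1, Odc1 and Amd1, Amd1 and Smox, or Sms and Arg1. The order of Sat1 and Odc1 turned between the groups: Sat1 averaged 332 ± 33.3 TPM and Odc1 221 ± 70.8 in DSS (SD, n = 4), and 217 ± 18.8 and 301 ± 45.6 TPM in DSS+AP. So did the order of the next 3. In DSS the means were 74.2 ± 17.4 TPM for Ass1, 69.1 ± 8.57 for Smox and 49.7 ± 17.9 for Srm, and in DSS+AP 64.3 ± 23.8 TPM for Srm, 47.4 ± 5.73 for Smox and 33.5 ± 13.3 for Ass1 (SD, n = 4). Neighbours among these 3 overlapped in both groups. With the longest transcript as length, Sat1 stood first over all 8 libraries at 430 TPM, above Oat at 312 and Odc1 at 306, and Ass1 above Srm.

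Ass1 joins citrulline and aspartate on the way to arginine (gene 11898; chromosome 2, 31470270 to 31520670, GRCm38.p6). In DSS it measured 59.2, 35.0, 46.6 and 61.3 CPM in mice 1 to 4, and in DSS+AP 22.4, 35.7, 16.6 and 19.6 CPM. The groups overlapped only through DSS 2, the lowest of its group, and DSS+AP 2, the highest of its own. Its mean was 50.5 ± 12.2 CPM in DSS and 23.6 ± 8.41 in DSS+AP (SD, n = 4), a log2 fold change of -1.10 ± 0.26 (SE; 95% interval -1.68 to -0.52; edgeR adjusted p = 0.0141). The call held without any 1 of the 8 libraries (edgeR adjusted p = 0.00524 to 0.0485, log2 fold change -1.36 to -0.96).

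Markers of several cell types moved with Ass1. Their counts of lower genes stand beside 20.4% of all tested genes lower. The summed macrophage markers, led by Lyz2 and C1qa, ran from 537 to 1243 CPM in DSS and from 381 to 573 in DSS+AP, with 10 of 10 genes lower (exact two-sided permutation p of the sum = 0.0571, n = 4 each; the smallest possible is 0.0286). Summed fibroblast markers, led by Col3a1 and Col1a2, ran from 2487 to 5687 and from 1335 to 2073 CPM, with 10 of 10 lower (exact permutation p = 0.0286). Smooth muscle markers, led by Myh11 and Tagln, summed to 2930 to 4641 and 1462 to 2748 CPM, with 9 of 10 lower (exact permutation p = 0.0286). In all 3 sums, as for Ass1, DSS 2 was the lowest DSS library and DSS+AP 2 the highest DSS+AP library. Endothelial markers, led by Pecam1 and Vwf, summed to 192 to 323 and 105 to 133 CPM, with 10 of 10 lower (exact permutation p = 0.0286). The endothelial, neutrophil and pancreatic sums likewise had DSS 2 lowest in DSS and DSS+AP 2 highest in DSS+AP. The epithelial, dividing cell, T cell, B cell and hepatocyte sums did not. No list had a marker at 0 in every library, and the part of these cell types in the results was not tested.

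Sat1 encodes the acetyltransferase that starts polyamine breakdown and export (gene 20229; chromosome X, 155213126 to 155216449, GRCm38.p6; its upstream stretch with 2 GC boxes is shown above). It measured 260, 219, 289 and 270 CPM in DSS and 181, 150, 185 and 196 CPM in DSS+AP. Every DSS+AP library lay below every DSS library, and within each group the mouse numbered 2 was lowest. Sat1 averaged 259 ± 29.5 and 178 ± 19.7 CPM (SD, n = 4), a log2 fold change of -0.54 ± 0.11 (95% interval -0.80 to -0.29; edgeR adjusted p = 0.00884).

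Smox encodes spermine oxidase, which turns spermine into spermidine and releases hydrogen peroxide (gene 228608; chromosome 2, 131491858 to 131525183, GRCm38.p6). Its level was 84.9, 63.9, 76.8 and 77.4 CPM in DSS and 57.5, 58.0, 55.0 and 46.3 CPM in DSS+AP. The groups did not overlap, and the libraries nearest to each other were again DSS 2 and DSS+AP 2. From 75.7 ± 8.72 CPM in DSS, Smox fell to 54.2 ± 5.45 CPM in DSS+AP (SD, n = 4), a log2 fold change of -0.48 ± 0.11 (95% interval -0.72 to -0.24; edgeR adjusted p = 0.0114). Only 1 of its 8 estimated counts was a whole number, so its counts are uncertain where reads were divided among genes. Sat1 and Smox kept their calls without any 1 library, but neither they nor Ass1 passed a test against a 1.5-fold change, in which no member was called.

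**Figure D2:**
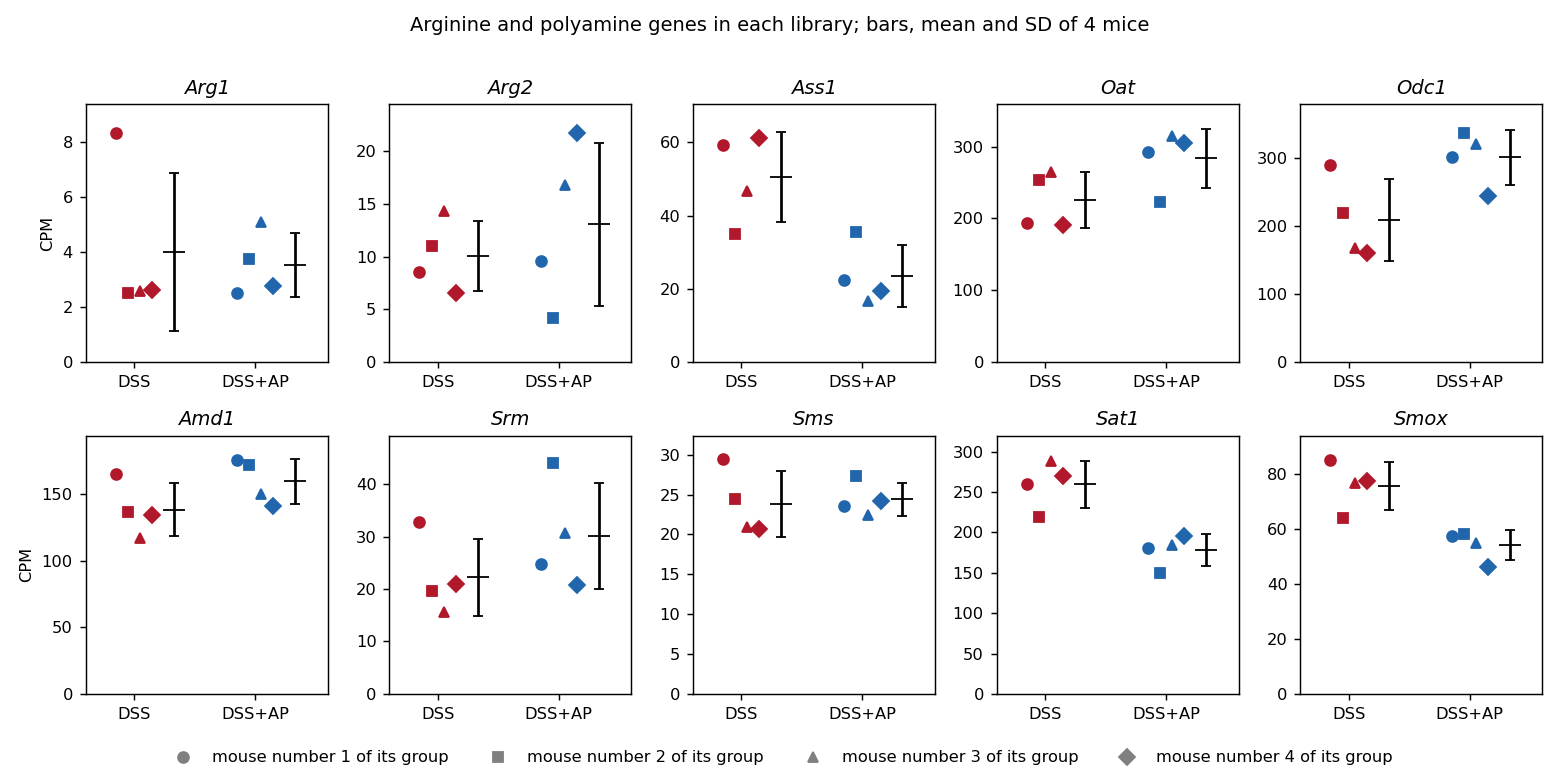
CPM of the 10 genes in each library, DSS in red and DSS+AP in blue; symbols give the mouse number within its group, and the black bars the mean and SD of 4 mice. The groups are apart for Sat1 and Smox, touch through the mice numbered 2 for Ass1, and overlap for the other genes.

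Odc1 encodes ornithine decarboxylase, the first enzyme of polyamine synthesis, whose protein is short-lived and held down by antizymes (gene 18263; chromosome 12, 17544808 to 17551502, GRCm38.p6). Its level was 291, 219, 168 and 161 CPM in DSS and 302, 338, 321 and 245 CPM in DSS+AP. Mouse DSS 1 was the only DSS library inside the DSS+AP range. The means were 210 ± 60.1 and 301 ± 40.3 CPM (SD, n = 4), a log2 fold change of 0.52 ± 0.19 (95% interval 0.09 to 0.96) that missed the threshold (edgeR adjusted p = 0.0690). It passed once DSS 1 was left out (log2 fold change 0.74; edgeR adjusted p = 0.0178), with DESeq2 (0.54; adjusted p = 0.0258) and with limma-voom (0.63; adjusted p = 0.0153).

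The later enzymes of synthesis did not pass. Amd1, the decarboxylase that makes the aminopropyl donor (chromosome 10, 40287458 to 40302188), ran from 117 to 165 CPM in DSS and from 141 to 176 in DSS+AP, a log2 fold change of 0.21 ± 0.12 (95% interval -0.06 to 0.47; edgeR adjusted p = 0.208). None of its 8 estimated counts was whole, so its counts are uncertain where reads were divided among genes. The near copy Amd2 was at only about 1 CPM. Srm, spermidine synthase (chromosome 4, 148591513 to 148594619), measured 32.8, 19.6, 15.7 and 20.9 CPM in DSS and 24.8, 44.1, 30.7 and 20.8 CPM in DSS+AP, a log2 fold change of 0.44 ± 0.28 (95% interval -0.19 to 1.06; edgeR adjusted p = 0.256). Sms, spermine synthase (chromosome X, 157443851 to 157492287), had the fold change nearest 0 of the 10, and lay between 20.6 and 29.5 CPM in DSS and between 22.4 and 27.4 in DSS+AP. Its log2 fold change of 0.03 ± 0.13 (95% interval -0.26 to 0.33; edgeR adjusted p = 0.870) became -0.025, -0.031 and -0.023 when DSS 3, DSS 4 or DSS+AP 2 was left out, and -0.015 with no scaling factors.

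Odc1, Amd1, Srm and Sms shared their highest DSS library, DSS 1, and Odc1, Srm and Sms their highest DSS+AP library, DSS+AP 2. The summed markers of dividing cells, led by Mki67 and Top2a, were likewise highest in DSS 1 (804 CPM) and DSS+AP 2 (1157 CPM). They ran from 318 to 804 CPM in DSS and from 840 to 1157 in DSS+AP, with 3 of 10 genes higher (exact two-sided permutation p = 0.0286, n = 4 each, and 0.0571 without scaling factors). Epithelial markers, led by Krt8 and Krt19, had 3 of 10 higher, and an exact permutation p of 0.0286 that became 0.0571 under 3 of the other scalings. Over all tested genes 8.84% were higher. The part of dividing or epithelial cells in the values of Odc1, Amd1, Srm and Sms was not tested.

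**Figure D3:**
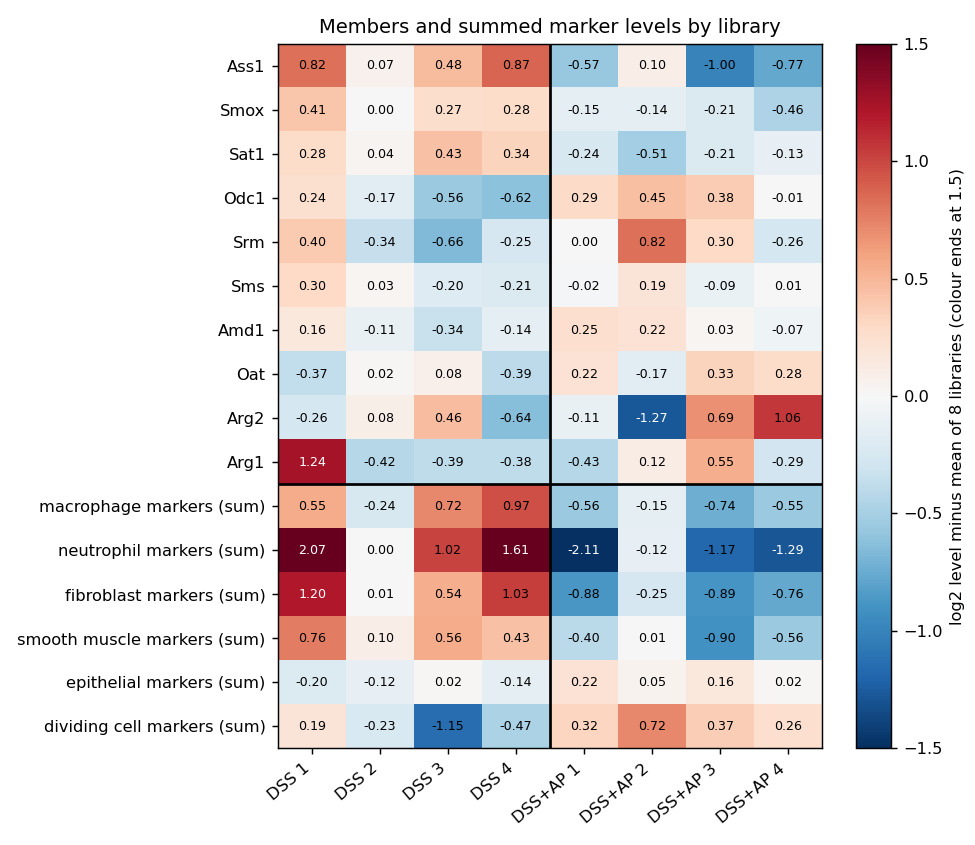
log2 level of the 10 genes and of 6 summed marker lists in each library, minus the mean of 8 libraries (red above, blue below; the colour ends at 1.5). Ass1, Smox and the sums for macrophages, fibroblasts and smooth muscle are highest in DSS 1, DSS 3 and DSS 4, with DSS 2 the lowest of its group, while Odc1 and the dividing cell sum are highest in DSS+AP 2.

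Oat, whose enzyme links ornithine with glutamate and proline (chromosome 7, 132557475 to 132576398), measured 193, 253, 265 and 191 CPM in DSS and 292, 223, 315 and 304 CPM in DSS+AP. Mouse DSS+AP 2 was the only one of its group inside the DSS range. The log2 fold change of 0.33 ± 0.15 (95% interval -0.0038 to 0.66) did not pass (edgeR adjusted p = 0.120). It did once DSS+AP 2 was left out (0.43; edgeR adjusted p = 0.0420) and with limma-voom (0.38; adjusted p = 0.0396).

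The arginase genes varied widely within the groups. The coefficient of variation was 71.3% in DSS and 32.8% in DSS+AP for Arg1, and 32.7% and 59.2% for Arg2, against 10.1% to 11.5% for Sat1 and Smox. Arg1 (chromosome 10, 24915207 to 24927470) measured 8.30, 2.53, 2.60 and 2.62 CPM in DSS and 2.52, 3.74, 5.08 and 2.79 CPM in DSS+AP. The highest library, DSS 1 with 149 estimated counts, stood far above the other DSS libraries with 42 to 43. Its log2 fold change of -0.19 ± 0.44 (95% interval -1.18 to 0.80; edgeR adjusted p = 0.766) became 0.47 when DSS 1 was left out (edgeR adjusted p = 0.225) and 0.016 by limma-voom. Arg2 (chromosome 12, 79130788 to 79156301) measured 8.58, 10.9, 14.3 and 6.58 CPM in DSS and 9.54, 4.20, 16.7 and 21.7 CPM in DSS+AP, where DSS+AP 2 was the lowest and DSS+AP 4 the highest of all 8. Its log2 fold change was 0.37 ± 0.45 (95% interval -0.65 to 1.39; edgeR adjusted p = 0.559). None of its estimated counts was whole, and 28.1% of its exon bases are shared with genes on the other strand (Gm48780 and Vti1b), so its counts are uncertain. Each interval reaches past a doubling in 1 direction, toward higher levels in DSS for Arg1 and in DSS+AP for Arg2. A change of that size in that direction was not excluded.

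Ratios of counts per kilobase within a library are free of the scaling between libraries. The ratio of Sat1 to Odc1, breakdown over synthesis, was 1.10, 1.23, 2.11 and 2.06 in DSS and 0.738, 0.544, 0.707 and 0.981 in DSS+AP. It lay above 1 in each DSS library and below 1 in each DSS+AP library, with means of 1.62 ± 0.537 and 0.743 ± 0.180 (SD, n = 4). With the longest transcript as length the DSS+AP values were 0.982, 0.724, 0.941 and 1.31, so the side of 1 depends on the length used, while the groups stay apart. Odc1 to Oaz1, the main antizyme gene, averaged 0.592 ± 0.122 in DSS and 0.813 ± 0.106 in DSS+AP with overlap. Srm to Sms ran from 2.82 to 4.18 in DSS and from 3.23 to 6.05 in DSS+AP. Arg1 to Arg2 ran from 0.117 to 0.619 and from 0.0823 to 0.569. No test was run on these ratios.

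**Figure D4:**
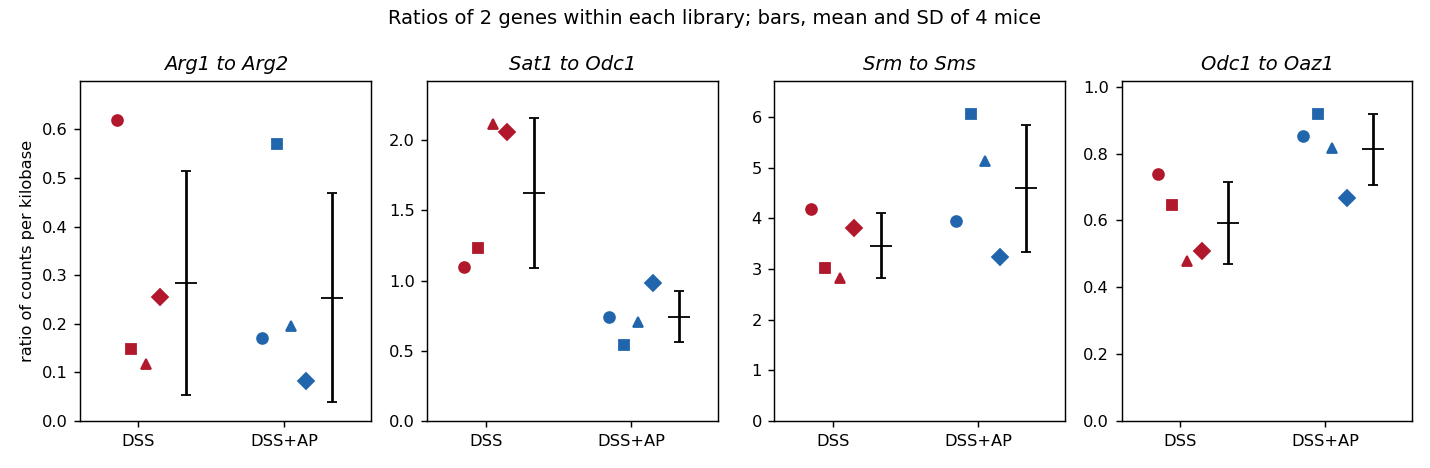
Ratio of counts per kilobase of 2 genes in each library, DSS in red and DSS+AP in blue, symbols by mouse number, black bars the mean and SD of 4 mice. Sat1 to Odc1 is the 1 ratio of the 4 whose groups do not overlap.

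The wider pathway was read from lists of genes with 55 symbols that are not among the 10, of which 49 were tested, 9 were higher, 10 lower and 30 not called. Over all 14578 tested genes 8.84% were higher and 20.4% lower, and every list count below is to be read beside these shares. Among 7 tested genes of arginases and arginine supply, Cps1 was higher and Ass1 lower. Asl, on the same list, overlapped between the groups and was not called (log2 fold change -0.14 ± 0.08; edgeR adjusted p = 0.195). Cps1, carbamoyl phosphate synthetase of the urea cycle, measured 0, 0.824, 1.73 and 0.487 CPM in DSS and 6.18, 0.759, 13.3 and 5.70 in DSS+AP, a log2 fold change of 3.10 ± 0.93 (edgeR adjusted p = 0.0346). With 0 counts in DSS 1 its size is uncertain, at 3.89 without DSS 3 and 2.48 without DSS+AP 3. Its call ended when mouse 1, 2 or 4 of DSS or mouse 1, 3 or 4 of DSS+AP was left out (edgeR adjusted p = 0.0553 to 0.0990), and with limma-voom (0.0676).

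Of 8 genes that lead arginine to nitric oxide or creatine, 5 were lower and 0 higher, with 0 also at an unadjusted p under 0.05, with DESeq2 and with limma-voom, and their median log2 fold change was -0.85. Nos2, the inducible nitric oxide synthase, measured 58.5, 72.2, 68.5 and 128 CPM in DSS and 3.36, 38.8, 2.91 and 8.12 CPM in DSS+AP. Every DSS+AP library lay below every DSS library, and DSS+AP 2 stood nearest to DSS. Its log2 fold change of -2.61 ± 0.78 (edgeR adjusted p = 0.0362) became -4.09 without DSS+AP 2, and the call was lost without any 1 of the other libraries (edgeR adjusted p = 0.0571 to 0.0895). Nos1, the neuronal synthase, fell by 2.23 ± 0.46 on the log2 scale (edgeR adjusted p = 0.00927), and Nos3, the endothelial synthase, fell by 1.38 ± 0.22 (adjusted p = 0.00417). Nos3 shares 32.3% of its exon bases with genes on the other strand (Atg9b and Gm15587). Ddah2, which clears an inhibitor of these synthases, fell by 0.76 ± 0.14 (edgeR adjusted p = 0.00633). Gch1, which starts the synthesis of their cofactor tetrahydrobiopterin, fell by 0.44 ± 0.13 (edgeR adjusted p = 0.0319), a call lost without any 1 library other than DSS 2 (0.0515 to 0.106). Ddah2 averaged 7.66 CPM in DSS. Ddah1, at a mean of 108 CPM there, was not called (log2 fold change 0.15 ± 0.11; edgeR adjusted p = 0.306). Of the macrophage, neutrophil, fibroblast, smooth muscle, endothelial and B cell marker lists, each had at least 9 of 10 genes lower in DSS+AP as well. The macrophage and B cell sums overlapped between the groups (exact two-sided permutation p = 0.0571 each). Epithelial and dividing cell sums were higher. The part of any cell type in these values was not tested.

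Genes between ornithine, proline and glutamate went the other way, with 4 of 9 higher and 0 lower, a median log2 fold change of 0.33, and 1 lower at an unadjusted p under 0.05, 0 with DESeq2 and 1 with limma-voom. Aldh18a1, which starts proline synthesis from glutamate, rose by 0.60 ± 0.17 (edgeR adjusted p = 0.0279). Pycr1 and Pycrl, reductases of the last step to proline, rose by 0.73 ± 0.20 and 0.45 ± 0.11 (edgeR adjusted p = 0.0259 and 0.0138). Prodh, which breaks proline down, rose by 0.98 ± 0.23 (edgeR adjusted p = 0.0146), from 7.08, 13.9, 11.6 and 8.10 CPM to a range of 15.5 to 24.7. In all 4 genes the groups did not overlap. The call of Pycr1 ended when mouse 1 or 4 of DSS or mouse 2 or 3 of DSS+AP was left out (edgeR adjusted p = 0.0522 to 0.0722), and that of Aldh18a1 when mouse 3 or 4 of DSS or mouse 3 of DSS+AP was (0.0545 to 0.0704) or without scaling factors (0.0526).

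Around polyamine synthesis, 1 of 8 tested genes was higher and 0 lower, with 0 lower also at an unadjusted p under 0.05, with DESeq2 and with limma-voom. The 1 was Mat2a, which makes S-adenosylmethionine. Its level was 313, 450, 385 and 340 CPM in DSS and 657, 460, 624 and 740 CPM in DSS+AP, a log2 fold change of 0.74 ± 0.16 (edgeR adjusted p = 0.0112). None of its counts was whole, and 11.3% of its exon bases lie opposite Particl, so its counts are uncertain. Of 4 antizyme system genes, 1 was higher and 2 lower. The antizyme gene Oaz2 fell by 0.31 ± 0.06 (edgeR adjusted p = 0.00626) and Azin2, an antizyme inhibitor gene, fell by 1.45 ± 0.29 (adjusted p = 0.00768). Azin2 averaged 4.90 CPM in DSS. Azin1, the other inhibitor gene, averaged 263 CPM there and rose by 0.37 ± 0.12 in DSS+AP (edgeR adjusted p = 0.0445). That call ended when mouse 3 or 4 of DSS or any 1 of DSS+AP was left out (0.0520 to 0.114) and under 3 other scalings (0.0506 to 0.0979).

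Polyamine breakdown held 4 genes, of which Sat1 and Smox were lower and Paox was higher. Paox, the oxidase that acts on the acetylated products of Sat1, rose by 0.37 ± 0.11 (edgeR adjusted p = 0.0342), from 10.2 to 11.5 CPM in DSS to 12.8 to 16.1 in DSS+AP. Its call was lost without any 1 library other than DSS 2 (edgeR adjusted p = 0.0503 to 0.0848) and under 2 other scalings (0.0542 and 0.0775). In the hypusine pathway, which spends spermidine on the translation factor eIF5A, 1 of 4 genes was lower and 0 higher, with 0 also by the other tools and at an unadjusted p under 0.05. Eif5a2 fell by 0.69 ± 0.22 (edgeR adjusted p = 0.0410), a call that ended when mouse 3 or 4 of DSS or any 1 of DSS+AP was left out (0.0610 to 0.115). Eif5a2 averaged 4.15 CPM in DSS and 2.57 in DSS+AP. Eif5a averaged 385 and 448 CPM and was not called (log2 fold change 0.22 ± 0.14; edgeR adjusted p = 0.258).

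Of 10 tested transporters of arginine and ornithine, 1 was higher and 2 lower. Slc7a2, a cationic amino acid carrier, measured 7.02, 4.36, 4.65 and 6.94 CPM in DSS and 1.98, 2.63, 2.36 and 2.60 CPM in DSS+AP, a log2 fold change of -1.26 ± 0.22 (edgeR adjusted p = 0.00494). Slc3a2, the heavy chain of several carriers, fell by 0.26 ± 0.07 (edgeR adjusted p = 0.0256), and was not called when mouse 3 or 4 of DSS or mouse 1, 3 or 4 of DSS+AP was left out (0.0532 to 0.0951). Slc25a15, the mitochondrial ornithine carrier, rose by 0.56 ± 0.11 (edgeR adjusted p = 0.00802), from 22.7 to 30.3 CPM in DSS to 37.4 to 41.0 in DSS+AP. None of 5 polyamine transporters was called, with 1 higher and 1 lower at an unadjusted p under 0.05 and with limma-voom, and 0 with DESeq2. The most abundant of them, Atp13a3, was at 0.07 ± 0.10 (edgeR adjusted p = 0.604).

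**Figure D5:**
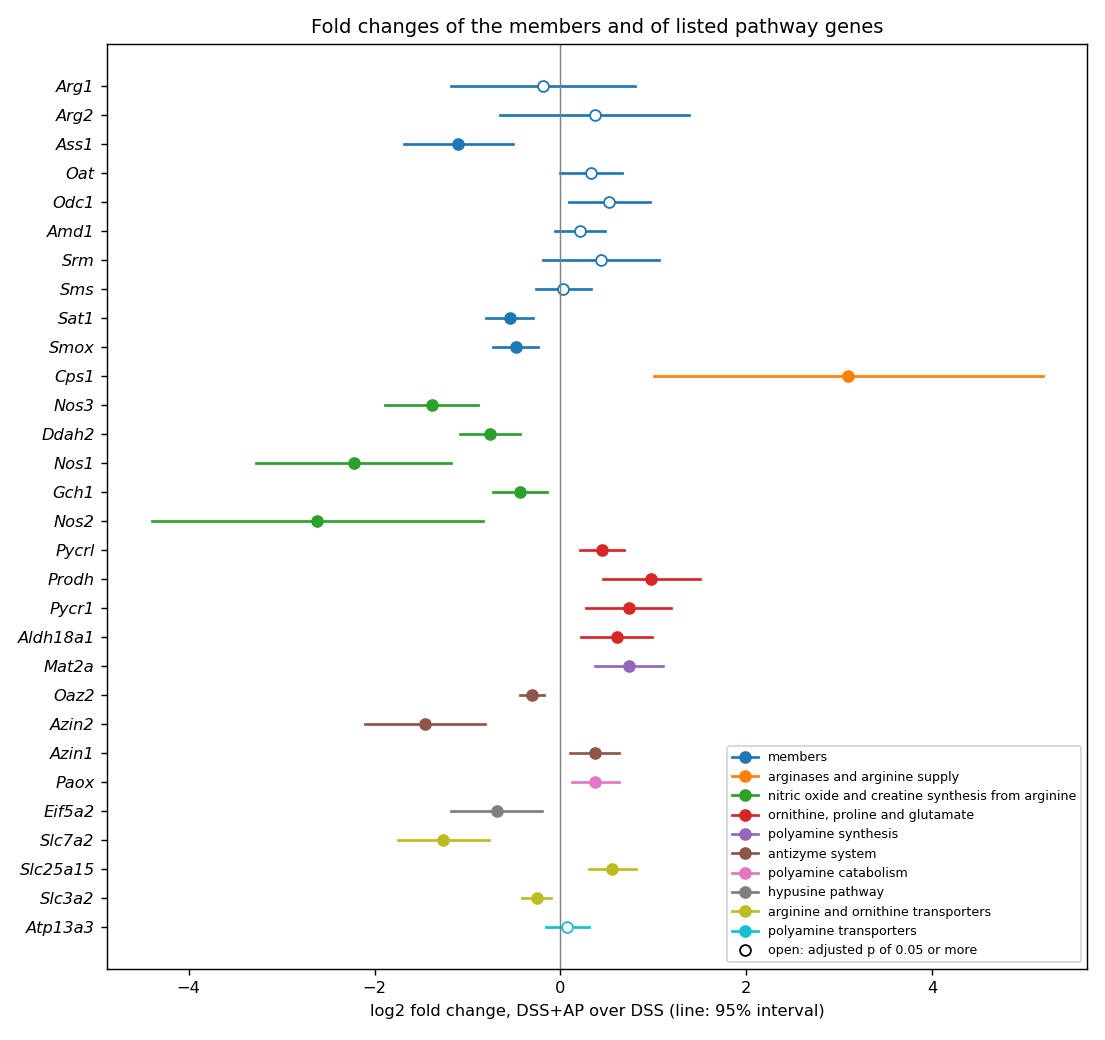
log2 fold change, DSS+AP over DSS, of the 10 genes and of the pathway genes named from each list, with 95% intervals; filled points passed an adjusted p of 0.05 and open points did not. The nitric oxide genes lie left of 0, the proline genes right of it, and the members on both sides.

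The genes whose centred log2 CPM profile over the 8 libraries came nearest to each called gene were found among 14026 named genes by the root mean square difference. For Ass1 these were Fbln1 (0.06), which is on the fibroblast marker list, Itga9 (0.09) and Anxa3 (0.11). For Sat1 they were Epas1 (0.05), Prex1 (0.06) and Tbc1d8 (0.07), and for Smox Pde8a (0.05), Palld (0.05) and Myd88 (0.06). After dividing each profile by its own SD, 1, 1 and 0 of the 3 were shared. The 8 libraries share the 2 groups, so any gene that differs between them by a like amount comes near.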

How the data were processed

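Colon RNA of 8 mice was sequenced, 4 per group. Per the labels' protocols, RNA came from an RNeasy kit and libraries from a SMARTer mRNA kit. The genome build GRCm38.p6 and the tools RSEM 1.2.8, HISAT2 2.1.0 and Bowtie2 2.2.5 are named, without roles, in the processing notes of the submitters. The authors deposited estimated counts (expected counts, 10.7% to 11.5% not whole), not normalized to depth (use of strand: not given in the sources used here).

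Counts were rounded, filtered with filterByExpr and scaled with TMM, and groups compared with edgeR 4.0.16 (R 4.3.3; quasi-likelihood F test, robust, no covariates, Benjamini-Hochberg over 14578 genes, threshold 0.05). Standard errors come from the estimate and its F statistic. Nothing says which mice shared a cage or litter. TPM used GENCODE M21 exon lengths, found for 97.5% of genes. Coordinates are RefSeq's, where 18750 of 18806 IDs were found. Marker sums were compared by exact two-sided permutation over 70 assignments. The edgeR fit was tested on simulated counts, and the permutation test on values with a known answer. The other steps were not tested in this way. Alternatives were other scalings, filters, tools (DESeq2 1.42.0, limma 3.58.1), a block, a 1.5-fold threshold, left-out libraries, another length and another distance.

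The 10 genes and the lists were chosen with earlier results of these data known. The text describes every member, genes of each list past the threshold (at most 6, by smallest p) or else the most abundant, the 2 highest of the marker lists it describes, and the 3 nearest profiles. Amd2, Oaz1, Asl, Ddah1, Eif5a, Otc, Nags and Gatm are named beside these. Figures used matplotlib 3.10.9.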

Additional observations from a re-analysis of the deposited data

Results flagged for a closer look

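Among the 59 tested genes of the lists, each in both groups, 1 library of 4 in 5 of 118 groups lay farther from the rest than Dixon's test allows, and chance marks about 1 group in 20. Arg1 measured 8.30 CPM in DSS 1 against 2.53 to 2.62 in the other DSS libraries. Nos2 measured 38.8 CPM in DSS+AP 2 against 2.91 to 8.12 in the other DSS+AP libraries. Gatm, which starts creatine synthesis from arginine and was not called, measured 8.52 CPM in DSS+AP 2 against 4.40 to 4.74. Aldh18a1 was at 108 CPM in DSS+AP 2 against 73.5 to 78.2, still above every DSS library. Slc3a2 was at 72.5 CPM in DSS+AP 1 against 69.3 to 69.7, still below every DSS library (76.7 to 92.7 CPM).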

How the results depend on the processing

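Over 20 alternatives of the fit, Sat1 and Smox lost their calls only in the test against a 1.5-fold change, and Ass1 there (adjusted p = 0.111) and with the replicate number as a block (log2 fold change -1.13; adjusted p = 0.0549). Nothing says whether the numbers pair the mice. Deviations from the group means correlated at -0.14, -0.45, 0.36 and -0.19 between same-numbered mice. These values cannot exclude a shared cage or litter. With the replicate block, 582 genes were higher and 1967 lower, and Cps1, Gch1, Mat2a, Paox, Eif5a2 and Slc3a2 lost their calls too. The 1.5-fold test called 29 higher and 980 lower and 0 of the members. Genes higher numbered 767 without scaling, 1950 with only a filter on a total above 0, 2107 with DESeq2 and 2379 with limma-voom, and 525 to 2101 with 1 library left out (525 without DSS 4, 565 without DSS+AP 3, 762 without DSS+AP 4, 847 without DSS 3 and 2101 without DSS 2). Genes lower numbered 1985 to 3086 with 1 left out. Members higher numbered 1 with DESeq2 (Odc1), 2 with limma-voom (Odc1 and Oat), and 0 to 1 with 1 library left out. The sign turned for Sms (-0.015 without scaling, and with 1 library left out from -0.031, without DSS 4, to 0.17), for Arg1 (0.016 with limma-voom, and with 1 left out from -0.41 to 0.47, the latter without DSS 1) and for the summed T cell markers, whose difference of mean log2 sums was 0.0050 (exact permutation p = 0.971) and went to -0.0037, -0.020 and -0.039 under 3 scalings. With the longest transcript, levels moved to 312 TPM for Oat, 430 for Sat1, 123 for Amd1, 75.2 for Smox and 17.3 for Sms. For Gch1, Nos2, Eif5a2 and Slc3a2 the call was also lost with the filter on a total above 0 (adjusted p = 0.0558, 0.0758, 0.0611 and 0.0912). The cause of these changes was not tested. Depth limits the genes with few counts: among the members Arg1 had at most 149 counts in a library, and among other genes described Eif5a2 had at most 85 and Azin2 113.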

Other observations

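Otc, which makes citrulline from ornithine, was measured at 4.35, 12.7, 12.1 and 2.31 CPM in DSS and 25.5, 13.4, 23.6 and 21.6 CPM in DSS+AP. It was chosen after its values were seen, as the listed gene closest to the threshold on the side of higher levels. The groups did not overlap, and the log2 fold change was 1.42 ± 0.48 (95% interval 0.33 to 2.51; edgeR adjusted p = 0.0538). Nags, whose product activates Cps1, overlapped between the groups, at 1.39, 10.9, 9.48 and 2.25 CPM in DSS and 13.4, 5.60, 19.6 and 18.8 CPM in DSS+AP (log2 fold change 1.26 ± 0.64; edgeR adjusted p = 0.162). Cps1, Otc and Nags were each lowest in DSS+AP 2 within their group. The summed neutrophil markers, led by Ly6g and S100a9, ran from 115 to 484 CPM in DSS and from 26.8 to 106 in DSS+AP, with 10 of 10 lower (exact two-sided permutation p = 0.0286, n = 4 each). Summed B cell markers, led by Cd79a and Cd22, ran from 19.0 to 147 and from 8.51 to 19.2 CPM, with 10 of 10 lower (exact two-sided permutation p = 0.0571, and 0.0286 under 3 other scalings). Over all tested genes 20.4% were lower. Hepatocyte markers, whose list holds Cps1 and Otc, summed to 97.7 to 139 CPM in DSS and 68.3 to 104 in DSS+AP (p = 0.0857 by exact permutation).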
